A study of Mus musculus with 16 samples.

Results

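The clustered protocadherins are neuronal cell adhesion proteins whose genes stand side by side on mouse chromosome 18. They were taken here as every protein-coding gene whose symbol was Pcdha, Pcdhb or Pcdhg followed by a number, by a letter and a number, or by the letter c and a number, and the rule used no measured value. This gave 58 of the 55266 genes in the files, with 14 in the Pcdha (alpha) cluster, 22 in the Pcdhb (beta) cluster and 22 in the Pcdhg (gamma) cluster. On the plus strand of GRCm39 the alpha genes spanned chr18:37063237-37320716, the beta genes chr18:37397991-37657532 and the gamma genes chr18:37794846-37975014. Of the 58 genes, 5 are C-type genes that close the alpha and gamma clusters, namely Pcdhac1 (ENSMUSG00000103255), Pcdhac2 (ENSMUSG00000102697), Pcdhgc3 (ENSMUSG00000102918), Pcdhgc4 (ENSMUSG00000023036) and Pcdhgc5 (ENSMUSG00000102543).

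Each clustered protocadherin gene has a large variable exon with its own promoter, which encodes the part of the protein outside the cell. In the alpha and gamma clusters that exon is spliced to constant exons at the end of the cluster, which encode a common inner end of the protein, while the beta genes have no constant exons. A single neuron uses a small and largely random choice of the alternate alpha, beta and gamma genes, so that its surface carries its own mixture. Binding occurs between identical proteins on facing membranes and lets the branches of a neuron recognise and avoid each other. The C-type genes are used more generally, and the architectural factor CTCF and the cohesin ring loop promoters of the clusters to distant enhancers.

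The RNA came from the frontal cortex and the cerebellum of adult Upf3b-null mice (Upf3b-KO) and littermate controls (Ctrl), and the study asked which RNAs depend on Upf3b, a protein that takes part in nonsense-mediated mRNA decay. The sources used here did not give the sex, the exact age, the strain or the construction of the null allele. There were 4 mice of each genotype, from which both tissues were taken, and 4 libraries for each tissue and genotype. The labels number the libraries without naming mice, so each library was taken as 1 mouse. Which libraries shared a mouse was not given, and tests across the tissues took them as independent. One library, Upf3b-KO cerebellum replicate 1, held 64981 counts against 27660078 to 35238677 in the other 15. It was left out throughout, so that the Upf3b-KO cerebellum had 3 libraries. Levels are given as CPM, expected counts relative to the library total, or as TPM, which also divides by transcript length. Upf3b itself was at 14.2 to 15.7 CPM in Ctrl frontal cortex and 0.229 to 0.857 CPM in Upf3b-KO frontal cortex, and at 20.9 to 23.6 against 0.617 to 0.965 CPM in cerebellum. The tissue labels of the Ctrl libraries matched their markers. The sum of 6 markers of cortical excitatory neurons was 1544 to 1605 CPM in Ctrl frontal cortex and 479.9 to 500.3 CPM in Ctrl cerebellum. That of 6 markers of cerebellar granule cells was 37.0 to 42.3 against 3705 to 3729 CPM. Replicates lay close together, with a common coefficient of variation of 3.99% in frontal cortex and 3.87% in cerebellum. The p-values below rest on that spread, and the labels do not show whether it holds the full variation between mice and dissections.

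The files held 88 transcripts of the 58 genes, 37 genes having 1 transcript and 21 more than 1. Because of the constant exons, a median of 53.5% of the exon bases of an alpha gene and 45.6% of those of a gamma gene were also exon bases of another clustered protocadherin, whereas the median of the beta genes was 0%. Reads from constant exons were divided among the alpha genes or among the gamma genes by the model that made the counts. The level of a single alpha or gamma gene therefore carries an uncertainty that the spread between libraries does not show, while the annotated exons of the beta genes are mostly their own. Reads that fit several members through sequence likeness, among beta genes too, were not measured here. Other annotated genes that overlapped member exons added little, 6 on the same strand summing to 0.323 to 1.51 CPM and 9 on the opposite strand to 2.44 to 9.04 CPM in a library. Whether counting used the strand was not given in the sources used here. Of the 58 genes, 57 had enough counts to be tested. Pcdhb1 was not tested, since its 0.03 to 0.217 CPM lay near the 0.0851 to 0.109 CPM that 3 counts were worth in these libraries.

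In Ctrl mice the gamma cluster carried most of the clustered protocadherin RNA in both tissues. The gamma genes summed to 751 ± 11.5 CPM in frontal cortex and 960.4 ± 9.46 CPM in cerebellum (SD, n = 4 each), the alpha genes to 194 ± 7.12 and 243 ± 2.31 CPM, and the beta genes to 145 ± 2.64 and 206 ± 9.92 CPM. Of the summed CPM of all members, gamma took 68.9% in frontal cortex and 68.2% in cerebellum, alpha 17.8% and 17.2%, and beta 13.3% and 14.6%. All 3 sums were higher in Ctrl cerebellum than in Ctrl frontal cortex without overlap of the libraries, by ratios of 1.25 for alpha, 1.42 for beta and 1.28 for gamma.

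Per length, C-type genes took the top place in the alpha and gamma clusters. Pcdhac2, the last gene of the alpha cluster, was the highest alpha gene in both tissues, at 36.0 ± 1.02 TPM in Ctrl frontal cortex and 58.0 ± 2.03 TPM in Ctrl cerebellum (SD, n = 4 each). The highest gamma gene in cerebellum was Pcdhgc3, at 134 ± 1.31 TPM, and it was at 61.1 ± 1.79 TPM in frontal cortex. Pcdhgc4 was at 114 ± 2.44 TPM in frontal cortex and 101 ± 8.97 TPM in cerebellum, of which 101 ± 1.94 and 73.9 ± 8.5 TPM were assigned to 1 short transcript that lies almost wholly in exons of other members. Its full-length transcript alone was at 10.5 ± 1.33 and 23.7 ± 1.33 TPM. The place of Pcdhgc4 as the highest gamma gene in frontal cortex therefore rested on that short transcript, and the next was Pcdhgc5. Pcdhgc5 was at 87.9 ± 1.67 TPM in frontal cortex but 20.03 ± 1.02 TPM in cerebellum, and Pcdhac1 at 4.34 ± 1.05 and 8.04 ± 0.918 TPM. Among beta genes Pcdhb9 was the highest in both tissues, at 15.3 ± 0.437 and 19.8 ± 0.968 TPM. The lowest members were Pcdhb1 among beta genes (0.0766 ± 0.0457 and 0.128 ± 0.064 TPM), Pcdha8 among alpha genes (0.417 ± 0.222 and 0.876 ± 0.0793 TPM) and Pcdhgb8 among gamma genes (1.15 ± 0.282 and 2.48 ± 0.441 TPM). The order of the genes within a cluster was much alike in the tissues, with Spearman's rho across genes of 0.87 for 14 alpha, 0.77 for 22 beta and 0.88 for 22 gamma genes. These are descriptions, since the genes share libraries and, in alpha and gamma, reads.

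**Figure D1:**
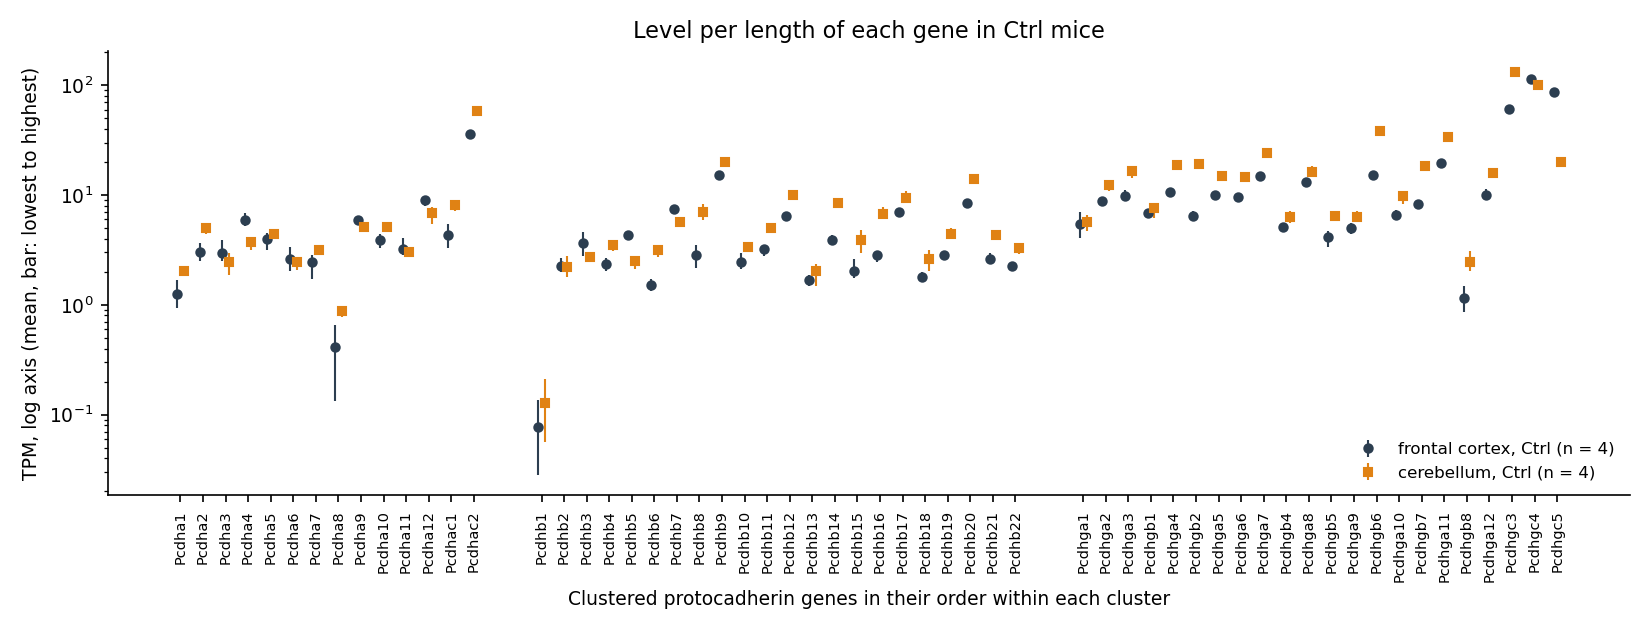
Level per length of each clustered protocadherin gene in Ctrl mice, in TPM on a log axis, with genes in their order within each cluster along the x axis. Points are means of 4 libraries for frontal cortex and cerebellum and bars run from the lowest to the highest library. The C-type genes Pcdhac2 and Pcdhgc3 lie above the alternate genes of their clusters, Pcdhgc4 does so with its short, mostly shared transcript but not by its full-length transcript alone, and Pcdhgc5 stands apart by its lower level in cerebellum.

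Between the Ctrl tissues, a comparison that uses the same Ctrl libraries as the genotype comparisons, 48 of the 57 genes tested passed (edgeR quasi-likelihood test, Benjamini-Hochberg adjusted across all genes tested, adjusted p under 0.05), which is 84.2% against 76.5% of all genes tested. Of these, 39 were higher in cerebellum (68.4% against 37.8% of all genes) and 9 lower (15.8% against 38.7%). The median log2 difference, cerebellum over frontal cortex, was 0.45 over the members and -0.01 over all genes tested. By cluster, 6 alpha genes were higher and 5 lower, 16 beta genes were higher and 3 lower, and 17 gamma genes were higher and 1 lower. With the limits of the study, a fold change over 2 and an adjusted p under 0.01, 7 genes were higher (Pcdhb8, Pcdhb14, Pcdhb16, Pcdhgb2, Pcdhgb6, Pcdhgb7 and Pcdhgc3) and 1 lower (Pcdhgc5). That was 12.3% higher against 9.18% of all genes and 1.75% lower against 15.9%.

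The C-type genes differed between the tissues in both directions. Pcdhgc3, which regulates branching of cortical dendrites through the scaffold protein Axin1, was at 116, 121, 118 and 125 CPM in the Ctrl frontal cortex libraries and at 251, 248, 249.9 and 252 CPM in the Ctrl cerebellum libraries (log2 fold change 1.01, SE 0.02, adjusted p = 1.43e-19). Pcdhgc5 ran the other way, with 163, 167, 159.5 and 167 CPM in frontal cortex and 37.8, 41.2, 36.4 and 37.3 CPM in cerebellum (log2 fold change -2.16, SE 0.03, adjusted p = 2.16e-22). The tissues did not overlap for either gene, and both tests were the edgeR quasi-likelihood test. Pcdhac2, known for the spacing of serotonergic axons, was higher in cerebellum (log2 0.57, adjusted p = 2.27e-13), as was Pcdhac1 (log2 0.77, adjusted p = 1.07e-05). Pcdhgc4, required for survival of cortical interneurons, did not pass (log2 -0.08, adjusted p = 0.0719, edgeR) but passed as lower in cerebellum with DESeq2 (log2 -0.08, adjusted p = 0.0429). The Pcdhgc4 result turned on 1 transcript. ENSMUST00000195239, of 2370 nt and with 6.88% of its bases outside exons of other members, carried 99.5 ± 1.93 CPM in Ctrl frontal cortex and 69.3 ± 8.22 CPM in Ctrl cerebellum, while the full-length transcript ENSMUST00000066140 carried 23.2 ± 2.94 and 49.9 ± 2.72 CPM (SD, n = 4 each). That short transcript was the only one of the members with under 20% of its bases outside exons of other members. With it left out, a choice made after seeing the data, the tissue difference of Pcdhgc4 was 1.02 (adjusted p = 5.81e-14, edgeR).

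Of the alternate gamma genes, 3 were higher in Ctrl cerebellum past the study's limits. They were Pcdhgb2 (log2 1.42, adjusted p = 1.82e-14), Pcdhgb6 (log2 1.21, adjusted p = 8.92e-16) and Pcdhgb7 (log2 1.03, adjusted p = 1.68e-13) by edgeR. Among beta genes the differences past the study's limits were Pcdhb8 at 1.26 (adjusted p = 1.58e-08), Pcdhb14 at 1.01 (adjusted p = 2.26e-12) and Pcdhb16 at 1.13 (adjusted p = 1.03e-09), also by edgeR. Pcdha4 was lower in cerebellum (log2 -0.81, edgeR adjusted p = 8.28e-08). In bulk tissue, a difference in the number of cells of a type cannot be told apart from a difference in RNA per cell.

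The sums of all 3 clusters were lower in Upf3b-KO than in Ctrl cerebellum, whereas in frontal cortex the ratios to Ctrl were nearer to 1, at 0.95 to 1.04 by library totals and 0.899 to 0.982 with TMM scaling. In cerebellum the gamma sum was 971, 958, 963 and 949 CPM in the Ctrl libraries and 602, 605 and 595 CPM in the Upf3b-KO libraries. The alpha sum was 241, 240.4, 244 and 245 CPM against 177, 179 and 181 CPM, and the beta sum 199, 207, 219 and 198 CPM against 156, 165 and 159 CPM. In each cluster all Upf3b-KO libraries lay below the Ctrl libraries, with ratios of the means of 0.738 ± 0.0118 for alpha, 0.777 ± 0.0432 for beta and 0.625 ± 0.00808 for gamma (SD). All members together summed to 1409 ± 14.6 CPM in Ctrl and 939.6 ± 7.7 CPM in Upf3b-KO, a ratio of 0.667.

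In frontal cortex the gamma sum was 746, 761, 737 and 759 CPM in the Ctrl libraries and 708, 714, 723 and 708 CPM in the Upf3b-KO libraries, lower without overlap at a ratio of 0.95. The alpha sums overlapped, at 204, 192, 192 and 188 CPM against 187, 196, 188 and 190.0 CPM with a ratio of 0.979. So did the beta sums, at 147, 143, 143 and 148 CPM against 148, 148, 148 and 159 CPM with a ratio of 1.04, and with TMM scaling the ratios were 0.927 for alpha, 0.982 for beta and 0.899 for gamma. In Upf3b-KO, the ratio of cerebellum to frontal cortex was 0.943 for alpha, 1.06 for beta and 0.842 for gamma, below the ratios in Ctrl. No test was made on a sum, since the genes were chosen with earlier results of these data known.

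**Figure D2:**
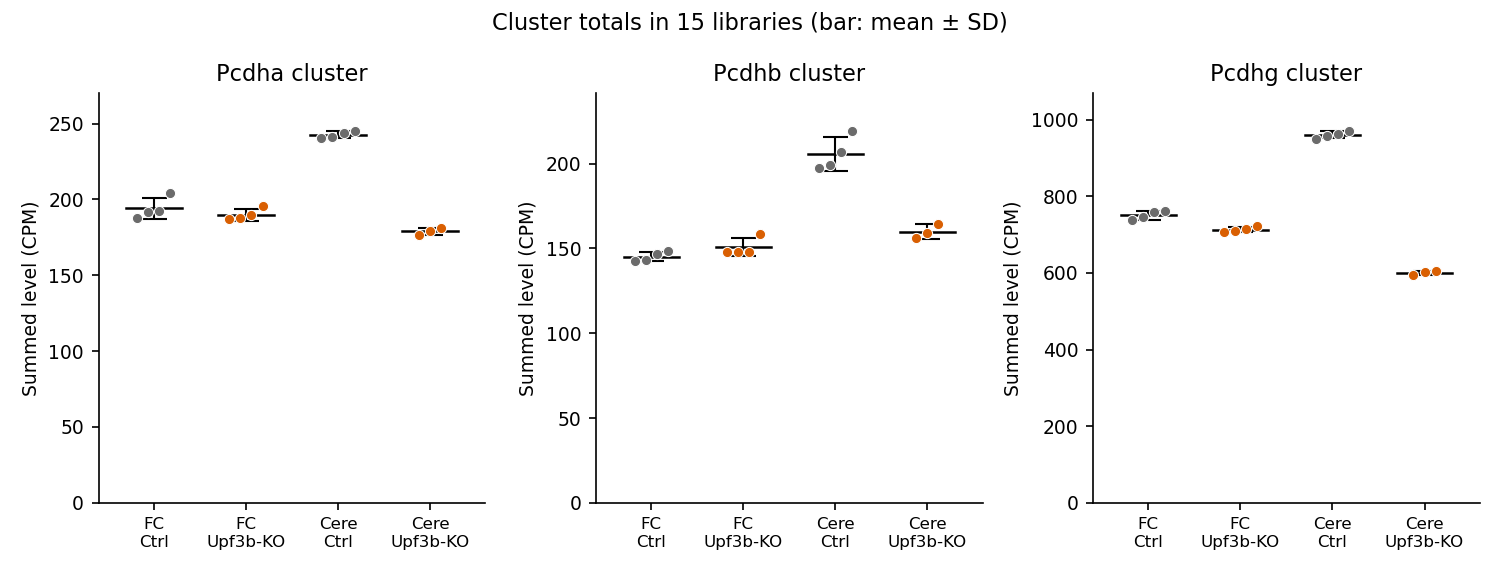
Summed level of the alpha, beta and gamma clusters in each library, in CPM on axes that start at 0. Points are libraries of frontal cortex (FC) and cerebellum (Cere), 4 per group and 3 in Upf3b-KO cerebellum, with the group mean and SD. In cerebellum all Upf3b-KO libraries lie below the Ctrl libraries in all 3 clusters, and in frontal cortex the alpha and beta groups overlap.

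In cerebellum 41 of the 57 genes tested passed in the comparison of Upf3b-KO with Ctrl (edgeR quasi-likelihood test, Benjamini-Hochberg adjusted across all genes tested), or 71.9% against 64.4% of all genes tested. The directions were uneven: 39 were lower (68.4% against 31.3% of all genes) and 2 were higher (3.51% against 33.1%). The median log2 fold change was -0.45 over the members, from -1.64 to 0.44, and 0.01 over all genes tested. It was -0.12 for alpha genes (from -1.48 to 0.33), -0.32 for beta genes (from -1.64 to 0.44) and -0.68 for gamma genes (from -1.13 to -0.30). By cluster, 6 of 14 alpha genes fell and 1 rose, 12 of 21 beta genes fell and 1 rose, and 21 of 22 gamma genes fell. In 34 genes all Upf3b-KO libraries lay below the Ctrl libraries (59.6% against 27.1% of all genes tested) and in 2 above (3.51% against 36.3%). At the study's limits 6 fell (Pcdha8, Pcdhac1, Pcdhb4, Pcdhb13, Pcdhgb6 and Pcdhgb7), or 10.5% against 2.86% of all genes, and 0 rose against 10.3%, while 2 were higher at an unadjusted p under 0.05 with no fold limit (edgeR) and 1 passed as higher with DESeq2.

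Markers of the main cerebellar neurons moved with this comparison. All 6 granule cell markers fell, with sums of 3705 to 3729 CPM in Ctrl and 1924 to 1941 CPM in Upf3b-KO, and all 6 Purkinje cell markers fell, with sums of 10704 to 10839 and 4278 to 4292 CPM. All 5 oligodendrocyte markers rose, with sums of 5715 to 5807 CPM in Ctrl and 13688 to 13786 CPM in Upf3b-KO. So did all 8 choroid plexus markers, with sums of 31.4 to 35.8 and 1401 to 1426 CPM. Of these 8, 7 had enough counts in the Ctrl libraries to be tested between the Ctrl tissues. The other did not, so its test here says nothing more than the levels. Markers common to neurons moved in both directions, 3 up and 3 down, with sums of 5792 to 6000.1 and 6201 to 6246 CPM. No marker of these lists was at 0 throughout a cerebellum group. The part of tissue composition in the lower protocadherin levels was not tested.

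Among the C-type genes of the alpha cluster, Pcdhac1 was at 18.8, 15.6, 19.0 and 15.5 CPM in the Ctrl cerebellum libraries and 8.34, 7.13 and 7.41 CPM in the Upf3b-KO libraries. Pcdhac2 was at 130.2, 137, 133 and 141 CPM against 87.5, 88.6 and 92.3 CPM. Neither gene's groups overlapped, and both fell (Pcdhac1, log2 fold change -1.23, SE 0.10, adjusted p = 1.48e-09; Pcdhac2, log2 fold change -0.65, SE 0.03, adjusted p = 9.2e-13, edgeR). Of the alternate alpha genes, Pcdha12 fell from 16.5, 11.6, 15.8 and 14.0 CPM to 7.73, 9.49 and 7.83 CPM (log2 fold change -0.84, SE 0.11, adjusted p = 3.11e-06, edgeR), and Pcdha8, the scarcest, fell from 1.85, 1.62, 2.0 and 1.92 CPM to 0.387, 1.31 and 0.329 CPM (log2 fold change -1.48, SE 0.36, adjusted p = 0.00133, edgeR). Pcdha4 was the only alpha gene that rose, from 6.55, 7.07, 7.3 and 8.09 CPM to 8.79, 9.19 and 10.3 CPM (log2 fold change 0.33, SE 0.10, adjusted p = 0.00788, edgeR), and its call was lost without Upf3b-KO replicate 4 (adjusted p = 0.0568). The 12 alternate alpha genes together were at 90.3 ± 2.28 CPM in Ctrl and 82.1 ± 1.24 CPM in Upf3b-KO, a ratio of 0.91, so most of the difference of the alpha sum lay in the C-type genes. The C-type share of the alpha sum was 62.8% ± 1.01 in Ctrl and 54.2% ± 0.748 in Upf3b-KO cerebellum, and 50.3% ± 0.434 and 50.2% ± 0.417 in frontal cortex (SD).

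The beta genes, which have no constant exons, fell unevenly in cerebellum. Pcdhb13 was at 3.24, 3.44, 3.04 and 2.17 CPM in Ctrl and 1.33, 0.709 and 0.969 CPM in Upf3b-KO (log2 fold change -1.64, SE 0.23, adjusted p = 4.42e-06, edgeR). Pcdhb4 was at 4.54, 5.76, 5.08 and 5.42 CPM against 2.13, 2.24 and 3.65 CPM (log2 fold change -1.0, SE 0.17, adjusted p = 4.38e-05, edgeR), and Pcdhb14 at 28.8, 29.6, 29.8 and 28.9 CPM against 15.6, 17.4 and 17.0 CPM (log2 fold change -0.86, SE 0.05, adjusted p = 6.37e-11, edgeR). In these 3 genes the groups did not overlap. Pcdhb19 (log2 -0.81, adjusted p = 7.24e-07) and Pcdhb20 (log2 -0.55, adjusted p = 1.54e-06) fell as well by edgeR, as did Pcdhb9, the highest beta gene per length, by a small step (log2 -0.20, adjusted p = 0.0163) that was lost without Upf3b-KO replicate 2 or 4 (adjusted p = 0.083 to 0.111) and with library totals (adjusted p = 0.0662). Pcdhb2 was at 2.11, 2.0, 2.58 and 3.11 CPM in Ctrl and 3.94, 2.67 and 3.7 CPM in Upf3b-KO and rose (log2 fold change 0.44, SE 0.18, adjusted p = 0.0421, edgeR). That call was lost without Ctrl replicate 1 or 2 or Upf3b-KO replicate 2 or 4 (adjusted p = 0.102 to 0.18), with DESeq2 (adjusted p = 0.0569), with no filter on low counts (adjusted p = 0.0517, edgeR) and with the replicate number as a block (adjusted p = 0.116, edgeR). Genes early in the beta cluster tended to the higher fold changes, with Spearman's rho of -0.48 between order and log2 fold change over 21 genes, and -0.55 over 14 alpha and -0.10 over 22 gamma genes, as descriptions across genes of the same libraries.

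In the gamma cluster the fall in cerebellum took in gamma-A, gamma-B and C-type genes alike, and Pcdhgb8 was the only gene that did not pass (log2 -0.31, edgeR adjusted p = 0.11). Pcdhgb6 was at 74.9, 78.7, 74.7 and 66.8 CPM in Ctrl and 36.8, 33.0 and 35.1 CPM in Upf3b-KO (log2 fold change -1.13, SE 0.05, adjusted p = 2.91e-13, edgeR). Pcdhgb7 was at 34.2, 37.1, 34.6 and 35.1 CPM against 16.9, 16.5 and 17.4 CPM (log2 fold change -1.11, SE 0.05, adjusted p = 5.68e-13, edgeR), and Pcdhgb2 at 33.1, 35.4, 39.1 and 34.9 CPM against 22.3, 21.3 and 19.8 CPM (log2 fold change -0.81, SE 0.06, adjusted p = 7.18e-10, edgeR). The groups of these 3 gamma-B genes did not overlap. The gamma-A genes Pcdhga6, Pcdhga7 and Pcdhga8 had log2 fold changes of -0.30, -0.45 and -0.41 (adjusted p = 9.96e-05, 6.49e-08 and 5.06e-06, edgeR).

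The 3 gamma C-type genes fell in cerebellum as well. Pcdhgc3 was at 251, 248, 249.9 and 252 CPM in the Ctrl cerebellum libraries and 153, 142 and 145 CPM in the Upf3b-KO libraries (log2 fold change -0.82, SE 0.02, adjusted p = 4.84e-16, edgeR). Pcdhgc4 was at 134, 117, 115 and 129 CPM against 79.8, 89.8 and 93.5 CPM (log2 fold change -0.55, SE 0.05, adjusted p = 2.02e-08, edgeR), and Pcdhgc5 at 37.8, 41.2, 36.4 and 37.3 CPM against 18.7, 19.5 and 21.2 CPM (log2 fold change -1.0, SE 0.06, adjusted p = 1.16e-11, edgeR). The groups did not overlap for any of the 3. For Pcdhgc4, the short transcript ENSMUST00000195239 stood at 69.3 ± 8.22 CPM in Ctrl and 40.6 ± 6.62 CPM in Upf3b-KO. The full-length transcript ENSMUST00000066140 was at 49.9 ± 2.72 and 43.5 ± 3.48 CPM (SD, n = 4 and 3). With the short transcript left out, Pcdhgc4 fell by 0.26 on the log2 scale (adjusted p = 2.71e-05, edgeR). In contrast to alpha, the C-type share of the gamma sum was much the same in Ctrl and Upf3b-KO cerebellum, at 42.9% ± 1.05 and 42.3% ± 1.14, and in frontal cortex at 54.5% ± 0.262 and 54.4% ± 1.32 (SD).

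**Figure D3:**
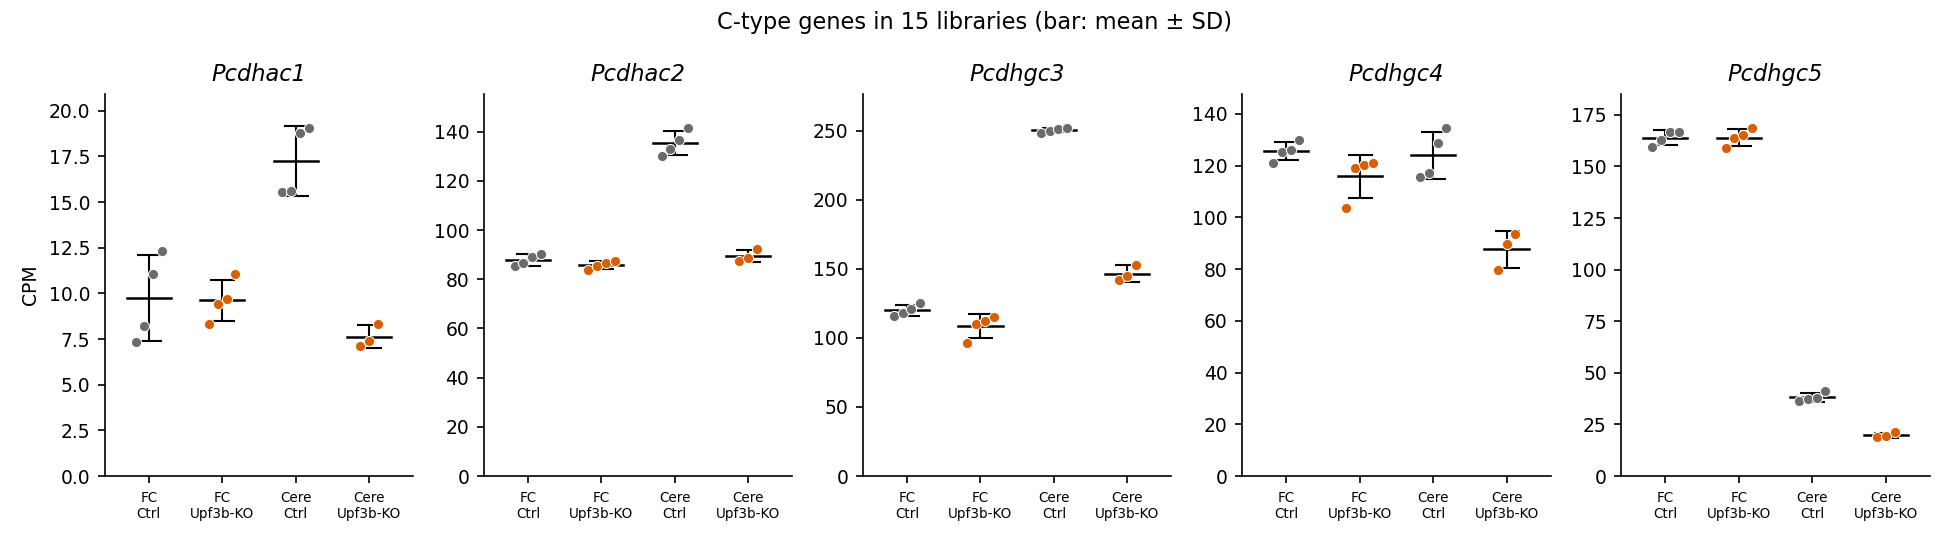
CPM of the 5 C-type genes in each library, on axes that start at 0, with the group mean and SD. The 4 groups along each x axis are Ctrl and Upf3b-KO of frontal cortex (FC, 4 libraries each) and of cerebellum (Cere, 4 and 3). In cerebellum the Upf3b-KO libraries lie below the Ctrl libraries for all 5 genes, and Pcdhgc5 is at 36.4 to 41.2 CPM in Ctrl cerebellum against 159.5 to 167 CPM in Ctrl frontal cortex.

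In frontal cortex 24 of the 57 genes passed in the same comparison (edgeR quasi-likelihood test, Benjamini-Hochberg adjustment), or 42.1% against 53.3% of all genes tested. Of these, 19 fell (33.3% against 25.3% of all genes) and 5 rose (8.77% against 28%). The median log2 fold change was -0.08 over the members, from -1.31 to 0.65, and 0.00 over all genes tested. In 11 genes all Upf3b-KO libraries lay below the Ctrl libraries (19.3% against 15.2%) and in 6 above (10.5% against 33.1%). No member passed the study's limits in either direction, against 10.2% of all genes, while without the fold limit 24 passed at 0.05 in edgeR and 26 in DESeq2, and at an unadjusted p under 0.05 in edgeR 21 were lower and 9 higher. By cluster, 4 alpha genes fell and 1 rose, 3 beta genes fell and 2 rose, and 12 gamma genes fell and 2 rose. The split depended on the scaling: with library totals in place of TMM, an alternative chosen after seeing the data, 14 fell and 10 rose, and the median was -0.00 over the members and 0.08 over all genes, 36.6% of which were then higher and 16.8% lower.

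Beside these small differences, all 8 choroid plexus markers rose in frontal cortex, with sums of 20.9 to 22.1 CPM in Ctrl and 2188 to 2247 CPM in Upf3b-KO. Of these 8, 7 had enough counts in the Ctrl libraries to be tested between the Ctrl tissues. The other did not, so its test here says nothing more than the levels. All 8 striatal neuron markers rose too, with sums of 162 to 174 and 782 to 795 CPM. Of the cortical excitatory neuron markers 1 rose and 4 fell, with sums of 1544 to 1605 and 1444 to 1454 CPM. Their part in the protocadherin values was not tested.

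Among the C-type genes in frontal cortex, Pcdhac1 was at 12.3, 7.37, 11.1 and 8.21 CPM in Ctrl and 9.4, 11.1, 9.67 and 8.34 CPM in Upf3b-KO and did not pass (log2 -0.10, edgeR adjusted p = 0.559). Pcdhac2 was at 90.5, 89.2, 86.5 and 85.4 CPM against 85.4, 87.5, 83.8 and 86.4 CPM (log2 fold change -0.11, SE 0.03, adjusted p = 0.00167, edgeR). Pcdhgc3 was at 116, 121, 118 and 125 CPM against 109.8, 95.9, 113 and 115 CPM (log2 fold change -0.22, SE 0.04, adjusted p = 6.39e-05, edgeR). For Pcdhgc3 all Upf3b-KO libraries lay below the Ctrl libraries, while the Pcdhac2 groups overlapped, and with library totals as scaling Pcdhac2 did not pass (log2 -0.03, adjusted p = 0.31, edgeR). Pcdhgc4 was at 126, 129.9, 125 and 121 CPM in Ctrl and 104, 120.3, 119 and 121 CPM in Upf3b-KO, replicate 1 of Upf3b-KO being the lowest (log2 fold change -0.19, SE 0.04, adjusted p = 0.000147, edgeR). It fell by 0.29 on the log2 scale with its mostly shared transcript left out (adjusted p = 0.000246, edgeR). Pcdhgc5, with 163, 167, 159.5 and 167 CPM against 165, 164, 168 and 159 CPM, had overlapping groups and passed with TMM scaling (log2 fold change -0.08, SE 0.02, adjusted p = 0.00654, edgeR) but not with library totals, where no fall was left (log2 0.0011, adjusted p = 0.972).

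Among the alternate genes in frontal cortex, the falls past the test with the smallest adjusted p were Pcdha9 (log2 fold change -0.58, SE 0.08, adjusted p = 2.58e-06) and Pcdha12 (log2 fold change -0.41, SE 0.08, adjusted p = 8.77e-05) in alpha, Pcdhb13 (log2 fold change -0.83, SE 0.19, adjusted p = 0.000645) in beta, and Pcdhgb6 (log2 fold change -0.37, SE 0.04, adjusted p = 4.12e-07), Pcdhga7 (log2 fold change -0.44, SE 0.05, adjusted p = 2.03e-07) and Pcdhga8 (log2 fold change -0.34, SE 0.05, adjusted p = 5.61e-06) in gamma, all by edgeR. Pcdhb13 was at 2.58, 2.88, 2.61 and 2.3 CPM in Ctrl and 1.85, 1.5, 1.05 and 1.7 CPM in Upf3b-KO. Of the 5 genes that rose, Pcdhb6 was at 2.67, 2.07, 2.13 and 1.99 CPM against 3.07, 3.08, 4.15 and 4.32 CPM (log2 fold change 0.65, SE 0.16, adjusted p = 0.00175, edgeR), Pcdhb16 at 6.63, 6.61, 5.3 and 6.08 CPM against 8.52, 8.46, 8.57 and 7.15 CPM (log2 fold change 0.33, SE 0.10, adjusted p = 0.00868, edgeR) and Pcdhga6 at 17.9, 20.2, 18.2 and 21.0 CPM against 22.8, 29.9, 27.4 and 23.4 CPM (log2 fold change 0.34, SE 0.08, adjusted p = 0.000628, edgeR). The other two, Pcdha1 and Pcdhgb8, had log2 fold changes of 0.40 and 0.43 (adjusted p = 0.0477 and 0.0407, edgeR). Calls close to the threshold rested on single libraries. Pcdha1 (adjusted p = 0.0554 to 0.17) and Pcdhb22 (0.0543 to 0.132, from 0.0488 with all libraries) each lost theirs without any one of 7 libraries, that is all but Ctrl replicate 2 and all but Ctrl replicate 4 in turn. Pcdhb11 (adjusted p = 0.0393) lost its call without Ctrl replicate 1, 2 or 4 or Upf3b-KO replicate 1 or 3 (adjusted p = 0.06 to 0.156), Pcdha8 (adjusted p = 0.0185) without replicate 2 or 3 of either group (adjusted p = 0.0538 to 0.0921), and Pcdhgb8 without Ctrl replicate 3 or 4 or Upf3b-KO replicate 1 or 4 (adjusted p = 0.0798 to 0.14), all by edgeR. With library totals, Pcdhb11 (adjusted p = 0.116) and Pcdhb22 (adjusted p = 0.168) did not pass in edgeR either. With no filter on low counts, Pcdha1 (adjusted p = 0.0656), Pcdhgb8 (adjusted p = 0.0594) and Pcdhb22 (adjusted p = 0.117) lost their calls, as did Pcdhb22 with the replicate block (adjusted p = 0.0653), also by edgeR.

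Of the 19 genes that fell in frontal cortex with TMM scaling, 18 also fell in cerebellum (94.7% of 19 and 46.2% of the 39 that fell in cerebellum), and of the 5 and 2 that rose none was shared. Pcdhb22 was among the 18, and its cerebellum call was lost without Ctrl replicate 3 or 4 or Upf3b-KO replicate 2 (adjusted p = 0.0716 to 0.154, edgeR). Of the 16754 genes tested in both tissues, 4505 fell in frontal cortex and 5325 in cerebellum, and the 2162 that fell in both were 48.0% of the former and 40.6% of the latter, while the 2335 that rose in both were 54.6% of 4277 in frontal cortex and 41.0% of 5689 in cerebellum. With library totals as scaling 1 member rose in both tissues, Pcdhb2 (log2 0.43, adjusted p = 0.0229 in frontal cortex and 0.49, adjusted p = 0.0249 in cerebellum, edgeR). The genotype comparisons of the tissues share no library, although both tissues came from the same mice. Across 57 genes the log2 fold changes of the tissues had a Spearman's rho of 0.52 and a Pearson's r of 0.57, with rho at 0.58 for alpha, 0.56 for beta and 0.20 for gamma genes, given as a description of genes that share reads and libraries. Pcdhb6, Pcdhb16 and Pcdhga6 rose in frontal cortex and fell in cerebellum. Pcdhb6 was at 4.72, 4.41, 4.02 and 4.72 CPM in Ctrl and 2.94, 3.27 and 4.05 CPM in Upf3b-KO cerebellum, and its call there (log2 -0.43, adjusted p = 0.0113) was lost without Upf3b-KO replicate 2 or 3 (adjusted p = 0.0501 to 0.0676, edgeR). Pcdhb16 was at 12.96, 14.2, 15.9 and 12.9 CPM against 12.3, 11.9 and 11.9 CPM in cerebellum (log2 -0.27, edgeR adjusted p = 0.00976).

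An interaction term, cerebellum minus frontal cortex and fitted over 15 libraries, asked whether Upf3b-KO and Ctrl differed unequally in the tissues. Of 57 genes, 31 passed, all with a more negative fold change in cerebellum (54.4% against 23.8% of all genes tested) and 0 with a more positive one (against 24.2%), which was also 0 at an unadjusted p under 0.05 in edgeR and 0 with DESeq2. They were 4 of 14 alpha, 10 of 21 beta and 17 of 22 gamma genes, and the median interaction was -0.39 over the members and -0.01 over all genes. All 5 C-type genes were among them. The smallest adjusted p-values belonged to Pcdhgc5 (interaction -0.93, SE 0.05, adjusted p = 1.45e-13), Pcdhac2 (interaction -0.55, SE 0.04, adjusted p = 2.44e-11) and Pcdhgb7 (interaction -1.0, SE 0.08, adjusted p = 8.65e-11) by edgeR. Past the study's limits were Pcdhac1 at -1.15 (adjusted p = 1.13e-05), Pcdhb6 at -1.09 (adjusted p = 0.000158) and Pcdhgb7 (5.26% against 3.04% of all genes). The interaction of Pcdhgc4 (-0.36, adjusted p = 0.000136) was 0.01 (adjusted p = 0.925, edgeR) with its mostly shared transcript left out.

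**Figure D4:**
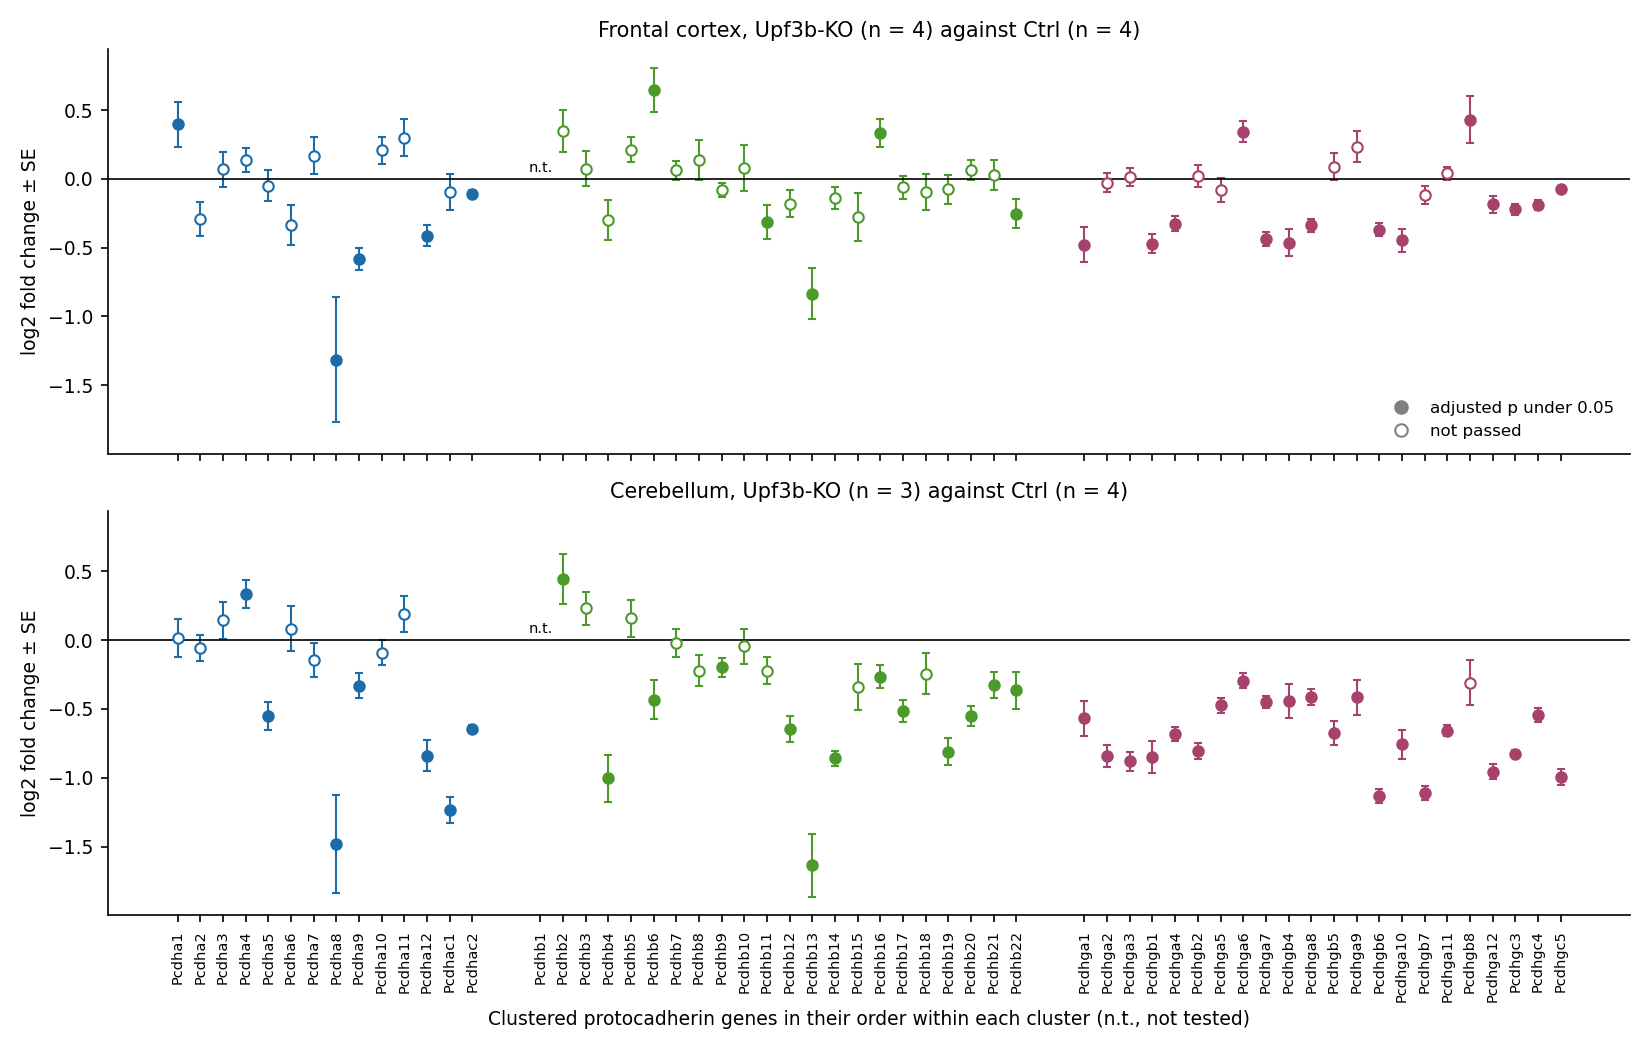
Log2 fold change of Upf3b-KO over Ctrl for each clustered protocadherin gene in frontal cortex and cerebellum, with genes in their order within each cluster and bars of 1 SE. Filled points passed the edgeR quasi-likelihood test at an adjusted p under 0.05 and open points did not, and n.t. marks Pcdhb1, which was not tested. All 22 gamma genes lie below 0 in cerebellum, with Pcdhgb8 as an open point, while in frontal cortex the members scatter near 0.

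The deposited values are per transcript, so the test was also made on the transcripts of the members among all transcripts. In frontal cortex 74 of the 88 were tested, of which 1 rose and 11 fell (16.4% of all transcripts passed in either direction, 8.67% higher and 7.68% lower), and in cerebellum 75 were tested, of which 1 rose and 29 fell (22.6% of all passed, 12.3% higher and 10.3% lower). The frontal cortex count of 12 was 20 with DESeq2, 5 with the replicate block and 6 to 11 with 1 library left out, being lowest without Ctrl replicate 3, at 6, and without Ctrl replicate 1 or Upf3b-KO replicate 3, at 7. The cerebellum count of 30 was 20 with the replicate block and 17 with the shallow Upf3b-KO replicate 1 kept. In frontal cortex the smallest adjusted p-values were those of ENSMUST00000003599 of Pcdhgb6 (-0.36, adjusted p = 0.000608), ENSMUST00000066149 of Pcdhga8 (-0.33, adjusted p = 0.00235), ENSMUST00000192511 of Pcdhga7 (-0.46, adjusted p = 0.00271), ENSMUST00000115659 of Pcdha9 (-0.57, adjusted p = 0.00399) and ENSMUST00000192931 of Pcdhgb1 (-0.43, adjusted p = 0.00425), as log2 fold changes by edgeR. In cerebellum they were those of ENSMUST00000076807 of Pcdhgc3 (-0.77, adjusted p = 5.59e-06), ENSMUST00000194928 of Pcdhgb7 (-1.06, adjusted p = 1.24e-05), ENSMUST00000047479 of Pcdhac2 (-0.60, adjusted p = 3.13e-05), ENSMUST00000003599 of Pcdhgb6 (-1.08, adjusted p = 3.52e-05) and ENSMUST00000055935 of Pcdhgc5 (-0.95, adjusted p = 6.39e-05), also by edgeR. Of the 88 transcripts, 73 are annotated as protein-coding, 10 as retaining an intron and 2 as substrates of nonsense-mediated decay. One of those 2, ENSMUST00000192103 of Pcdhgc3, had enough counts to be tested. It was at 0 to 6.99 CPM in Ctrl and 0 to 7.49 CPM in Upf3b-KO frontal cortex and at 0 to 12.2 and 0.78 to 4.51 CPM in cerebellum, with overlapping groups. It did not pass in either tissue (log2 -0.08, adjusted p = 0.987 in frontal cortex and -0.90, adjusted p = 0.74 in cerebellum, edgeR).

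Of 17 factors that organise or silence the clusters, 15 fell and 0 rose in Upf3b-KO cerebellum by edgeR (0 rose at an unadjusted p under 0.05 too), with a median log2 fold change of -0.38. Ctcf, the zinc finger protein that binds the promoters and enhancers of the clusters, was at 91.0, 92.0, 92.5 and 93.7 CPM in Ctrl cerebellum and 59.2, 65.8 and 64.8 CPM in Upf3b-KO (log2 fold change -0.59, SE 0.03, adjusted p = 2.21e-11, edgeR), without overlap. The cohesin subunits Smc3 at -0.64, Smc1a at -0.36, Rad21 at -0.46, Stag1 at -0.65 and Stag2 at -0.48 fell, as did the cohesin loader Nipbl at -0.50, the release factor Wapl at -0.38 and the CTCF partner Wiz at -0.74 (log2 fold changes). In frontal cortex 4 of the 17 rose and 5 fell with a median of 0.01, Ctcf at -0.13 and Wiz at -0.26 being among the falls. Their sums were 871 to 909 CPM in Ctrl and 904 to 929 CPM in Upf3b-KO frontal cortex, and 1287 to 1308 and 999 to 1024 CPM in cerebellum. For comparison, 33.1% of all genes tested rose and 31.3% fell in cerebellum, and 28% rose and 25.3% fell in frontal cortex.

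The non-clustered protocadherins, adhesion proteins of the same superfamily encoded outside the clusters, mostly rose in cerebellum. Of 12 genes 10 rose (83.3% against 33.1% of all genes) and 1 fell (8.33% against 31.3%), with a median log2 fold change of 1.08, and 7 rose past the study's limits (58.3% against 10.3%). Of the 12, Pcdh1 and Pcdh12 lie within 500 kb of the gamma cluster and are also among the neighbours. The largest were Pcdh11x at 2.08, Pcdh8 at 2.02, Pcdh19 at 1.66 and Pcdh7 at 1.46, while Pcdh20 fell (log2 fold change -0.80, SE 0.06, adjusted p = 4.61e-10, edgeR). Pcdh8 was at 2.92, 3.5, 2.71 and 3.11 CPM in Ctrl and 12.8, 13.1 and 12.8 CPM in Upf3b-KO cerebellum. In frontal cortex 0 of 11 tested rose in edgeR (2 at an unadjusted p under 0.05, and 28% of all genes rose) and 4 fell (36.4% against 25.3%), with a median of -0.09. Pcdh19 was among the falls there (log2 fold change -0.68, SE 0.04, adjusted p = 1.61e-12, edgeR). Their sums were 924 to 937 and 896 to 908 CPM in Ctrl and Upf3b-KO frontal cortex and 458 to 468 and 632 to 648 CPM in cerebellum.

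Genes that neighbour the clusters had a median near 0. Of 32 protein-coding genes between the clusters or within 500 kb of their ends (Pcdh1 and Pcdh12 among them, and without 3 annotated genes that run across the clusters and share exons with members), 31 were in the files and 30 were tested in cerebellum, where 11 rose (36.7% against 33.1% of all genes) and 4 fell (13.3% against 31.3%) with a median log2 fold change of 0.09. Of the 27 tested in frontal cortex, 7 rose (25.9% against 28%) and 3 fell (11.1% against 25.3%) with a median of 0.01. The shares that rose were thus near those of all genes. Over the neighbours tested, the log2 fold changes ran from -0.34 to 2.36 (Slc4a9) in cerebellum and from -0.51 to 2.07 (Slc25a2) in frontal cortex. In cerebellum Rell2 rose by 0.78, Hars1 by 0.35 and the histone deacetylase gene Hdac3 by 0.26 on the log2 scale, and Ankhd1 fell (log2 fold change -0.34, SE 0.05, adjusted p = 1.85e-06, edgeR). Of 20 partners and signalling genes of the clustered protocadherins, such as the kinases Ptk2 and Ptk2b, the WAVE complex and the cleaving protease Adam10, 3 rose and 11 fell in each tissue (15% and 55%, against 28% and 25.3% of all genes in frontal cortex and 33.1% and 31.3% in cerebellum), with medians of -0.13 in frontal cortex and -0.18 in cerebellum.

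**Figure D5:**
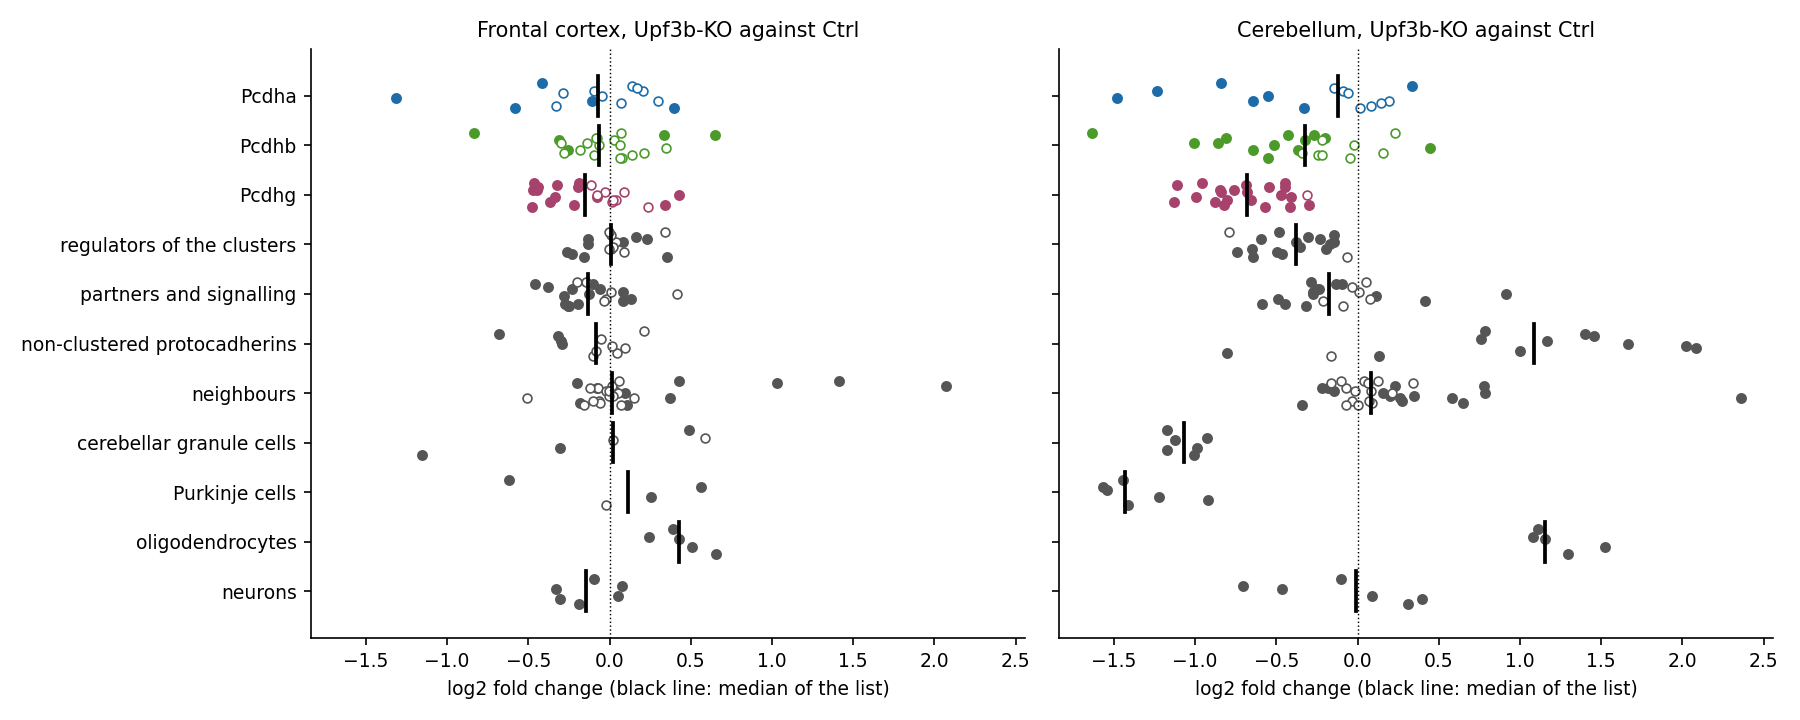
Log2 fold change of Upf3b-KO over Ctrl of every tested gene of each cluster and list, in frontal cortex and cerebellum, with the median of each marked. Filled points passed the edgeR quasi-likelihood test at an adjusted p under 0.05 and open points did not. In cerebellum the gamma genes and the cluster regulators lie mostly below 0 and the non-clustered protocadherins mostly above.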

How the data were processed

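Libraries from Upf3b-KO and Ctrl mice, 4 for each genotype in frontal cortex and in cerebellum, were grouped by their sample labels. Per the methods and labels, ribosomal RNA was removed, the SMART-Seq v4 PLUS kit was used for the libraries, and the authors sequenced read pairs on a NovaSeq, aligned them to GRCm39 with STAR 2.5.2b and quantified transcripts with RSEM. The values deposited were RSEM's expected counts for each Ensembl transcript, not scaled for depth or length. RSEM divides reads that fit several transcripts by a model, which bears on the constant exons of the alpha and gamma clusters.

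Each matrix held 142435 transcripts, of which 141102 were matched by identifier to GENCODE vM39, giving 55266 genes. Expected counts were summed per gene and rounded. CPM are relative to the library total and TPM use annotated transcript lengths. Tests were made in R 4.3.3 with edgeR 4.0.16 and limma 3.58.1: filterByExpr (minimum count 10, minimum total 15), TMM scaling, the quasi-likelihood test and Benjamini-Hochberg adjustment over all genes or transcripts tested. A gene passed at an adjusted p under 0.05. Background percentages are shares of all genes tested by the same rule. Depth was 27660078 to 35238677 counts, and 3 counts were worth 0.0851 to 0.109 CPM, which covers counting error only. Upf3b-KO cerebellum replicate 1 (64981 counts) was left out for its depth. In the 15 libraries, all 21 pairs of replicates differed by more than sampling noise.

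Alternatives were DESeq2 1.42.0, median-of-ratios scaling (RLE), no filter on low counts, the study's limits (adjusted p under 0.01, fold change over 2), the replicate number as a block, overlapping genes removed, the shallow library kept and each library left out in turn. Leaving out mostly shared transcripts (under 20% own bases) and scaling by library totals were chosen after seeing the data. Only ENSMUST00000195239 of Pcdhgc4 was left out by the former. The fits were tested on simulated counts with known fold changes.

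The genes, the lists and the comparisons were chosen with earlier results of these data known. Members named are the C-type genes, the highest and lowest per length of each cluster in Ctrl, those past the study's limits, the 3 per direction, cluster and tissue with the smallest adjusted p, and the 3 whose interaction had the smallest adjusted p. For transcripts, the 5 with the smallest adjusted p per tissue are named. The 17 regulators, 20 partners, 12 non-clustered protocadherins, 32 neighbours and 11 lists of cell type markers were compiled by hand or by position, and any other gene named was chosen after its values were seen. Sequences of the genes are not reported here.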

Additional observations from a re-analysis of the deposited data

Results flagged for a closer look

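Single libraries stood apart from the rest of their group of 4 in 5 of 99 groups of values examined, where Dixon's criterion at 1 in 20 gives 4.95 by chance. Pcdhb11 was at 8.97, 9.06, 9.05 and 7.88 CPM in Ctrl cerebellum, replicate 4 being apart. Pcdhb16 was at 8.52, 8.46, 8.57 and 7.15 CPM in Upf3b-KO frontal cortex, with replicate 4 the lowest. Pcdhgb7 was at 15.2, 16.9, 17.0 and 17.1 CPM in Ctrl frontal cortex, with replicate 1 apart. Pcdhgc4 was at 103.6 CPM in replicate 1 of Upf3b-KO frontal cortex against 119 to 121 CPM in the other 3. The beta sum was 158.6 CPM in replicate 4 of Upf3b-KO frontal cortex against 147.7 to 148.2 CPM in the other 3.

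The difference between Upf3b-KO and Ctrl differed between the tissues for 18 of the members named, by the interaction term (log2, cerebellum minus frontal cortex, edgeR quasi-likelihood test over all genes). In the alpha cluster these were Pcdha12 at -0.44 (adjusted p = 0.0163), Pcdhac1 at -1.15 (adjusted p = 1.13e-05) and Pcdhac2 at -0.55 (adjusted p = 2.44e-11). In the beta cluster they were Pcdhb4 at -0.72 (adjusted p = 0.0152), Pcdhb6 at -1.09 (adjusted p = 0.000158), Pcdhb13 at -0.81 (adjusted p = 0.0286), Pcdhb14 at -0.73 (adjusted p = 6.45e-07), Pcdhb16 at -0.61 (adjusted p = 0.000466), Pcdhb19 at -0.75 (adjusted p = 0.000226) and Pcdhb20 at -0.63 (adjusted p = 1.67e-05). In the gamma cluster they were Pcdhgb2 at -0.84 (adjusted p = 1.38e-07), Pcdhga6 at -0.65 (adjusted p = 1.12e-05), Pcdhgb6 at -0.77 (adjusted p = 5.47e-10), Pcdhgb7 at -1.0 (adjusted p = 8.65e-11), Pcdhgb8 at -0.75 (adjusted p = 0.016), Pcdhgc3 at -0.61 (adjusted p = 3.09e-10), Pcdhgc4 at -0.36 (adjusted p = 0.000136) and Pcdhgc5 at -0.93 (adjusted p = 1.45e-13). All 18 were more negative in cerebellum. With its mostly shared transcript left out, Pcdhgc4 did not pass (interaction 0.01, adjusted p = 0.925, edgeR). Pcdha12 lost its call without Upf3b-KO cerebellum replicate 2 or 4 (adjusted p = 0.0683 to 0.0692), Pcdhb4 without replicate 2 or 3 of that group (adjusted p = 0.0696 to 0.0698) and Pcdhgb8 without replicate 3 or 4 (adjusted p = 0.0505 to 0.0687). Pcdhb13 lost its call without any one of 6 libraries, namely Ctrl replicate 4 and Upf3b-KO replicates 1 and 4 of frontal cortex and Ctrl replicate 2 and Upf3b-KO replicates 3 and 4 of cerebellum (adjusted p = 0.0511 to 0.133, edgeR), and also with no filter on low counts (adjusted p = 0.0582) and with the replicate block (adjusted p = 0.0644).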

How the results depend on the processing

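The counts of members that passed were 24 in frontal cortex, 41 in cerebellum, 31 for the interaction and 48 between the Ctrl tissues, and 26, 40, 33 and 48 with DESeq2, 24, 41, 31 and 47 with RLE, and 25, 40, 30 and 47 with no filter. With library totals they were 24, 41, 31 and 49. At the study's limits they were 0, 6, 3 and 8. With 1 library left out they ran from 21 to 24, 37 to 42, 26 to 33 and 45 to 49. Transcripts passing numbered 12 in frontal cortex, with 0 at the study's limits, 20 with DESeq2 and 6 to 11 with 1 library left out, and 30 in cerebellum, with 3 at the study's limits, 17 with Upf3b-KO replicate 1 kept and 27 to 30 with 1 library left out.

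With TMM scaling the Upf3b-KO over Ctrl ratios were 0.927, 0.982 and 0.899 in frontal cortex for alpha, beta and gamma, and 0.706 and 0.598 in cerebellum for alpha and gamma. Per length the cerebellum ratios were 0.711 for alpha and 0.597 for gamma, and with Upf3b-KO replicate 1 kept they were 0.712, 0.732 and 0.609 for alpha, beta and gamma. With 1 library left out the ratios ran, for alpha, beta and gamma, in frontal cortex from 0.969 to 0.997, 1.02 to 1.04 and 0.944 to 0.954, and in cerebellum from 0.733 to 0.743, 0.766 to 0.795 and 0.623 to 0.628.

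In 26 values of named members the sign turned, 23 of them passing in neither fit. The other 3 were Pcdhgc5 in frontal cortex with library totals (0.0011), and Pcdhgc4 with its mostly shared transcript left out, for the interaction (0.0109) and between the Ctrl tissues (1.02). Of the 23, Pcdhb19 in frontal cortex turned with library totals (0.00204) and the interaction of Pcdhga7 with no filter (0.00683), and 21 turned with 1 library left out. There the log2 values ran from -0.165 to 0.0223 for Pcdhb19, -0.213 to 0.0356 for Pcdhac1 and -0.0216 to 0.081 for Pcdhgb2 in frontal cortex, and from -0.0478 to 0.122 for Pcdha1 in cerebellum. For the interaction they ran from -1.11 to 0.177 for Pcdha8, -0.00693 to 0.26 for Pcdhb2, -0.0234 to 0.152 for Pcdhb11, -0.185 to 0.0354 for Pcdhb22 and -0.0461 to 0.0374 for Pcdhga7. The causes were not tested beyond the construction of these alternatives. Of the other values for named members under the alternatives, 1866 kept direction and side of the threshold, 64 kept the direction but no longer passed, and 16 newly passed.

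The replicate numbers were not shown to pair the samples, since the correlations of the deviations of same-numbered libraries ran from -0.0372 to 0.126 (frontal cortex), from 0.0552 to 0.232 (cerebellum) and from -0.14 to 0.0394 (between the Ctrl tissues). With the replicate block, 24, 42, 30 and 48 members passed, and 5 transcripts in frontal cortex and 20 in cerebellum. Of the named members, Pcdhb22 in frontal cortex, Pcdhb2 in cerebellum and Pcdhb13 for the interaction no longer passed with the block, and no other call of a named member changed. Depth limits statements on Pcdhb1 and on members under about 3 CPM such as Pcdha8 and Pcdhb13, and the division of constant-exon reads limits those on single alpha and gamma genes.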

Other observations

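Neuronal classes in which single clustered protocadherins are known to act were measured by their markers. Of 6 markers of GABAergic interneurons, 2 rose and 2 fell in Upf3b-KO frontal cortex (sums of 836 to 848 CPM in Ctrl and 825 to 839 CPM in Upf3b-KO) and 2 rose and 3 fell in cerebellum (2068 to 2081 and 1493 to 1498 CPM). Among the latter, Gad1, which makes the transmitter GABA, fell (log2 fold change -0.64, SE 0.01, adjusted p = 1.62e-18, edgeR), while the neuropeptide gene Vip was at 0.0868, 0, 0.0991 and 0 CPM in Ctrl and 4.01, 4.06 and 4.38 CPM in Upf3b-KO cerebellum. Vip is 1 of the 2 counted as higher, but it met the filter on low counts only through the Upf3b-KO libraries, so its test says nothing more than these levels. Of 3 markers of serotonergic neurons, all were tested in cerebellum, where the sums were low in Ctrl (0.441 to 1.77 and 12.7 to 13.3 CPM), and 1 was tested in frontal cortex and did not pass (1.45 to 2.02 and 1.55 to 1.79 CPM). Their part in the values of Pcdhac2 or Pcdhgc4 was not tested.

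Of 5 astrocyte markers, all fell in frontal cortex (2837 to 2875 and 2256 to 2283 CPM), and 4 fell and 1 rose in cerebellum (4169 to 4222 and 2732 to 2753 CPM). All 5 oligodendrocyte markers rose in frontal cortex (7118 to 7181 and 9694 to 9757 CPM). Of 6 markers common to neurons, 2 rose and 4 fell in frontal cortex (7299.7 to 7414 and 7243 to 7263 CPM). Of the 5 granule cell markers tested in frontal cortex, 1 rose and 2 fell (37.0 to 42.3 and 33.2 to 34.7 CPM). Of the 4 Purkinje cell markers tested there, 2 rose and 1 fell (662 to 678 and 786 to 805 CPM). In cerebellum 5 striatal neuron markers rose and 1 fell (369 to 380.1 and 336 to 346 CPM), and 2 of the 4 cortical excitatory neuron markers tested fell (479.9 to 500.3 and 310.0 to 319 CPM), with Fezf2 at 0 in all 3 Upf3b-KO libraries. All 8 genes of male germ cells rose in frontal cortex (19.4 to 22.4 and 142 to 153 CPM). Their sums were low in Ctrl cerebellum (0.926 to 1.22 and 9.19 to 10.5 CPM). Of these 8, 6 had enough counts in the Ctrl libraries to be tested between the Ctrl tissues. The others did not, so their tests in frontal cortex say nothing more than the levels. In each pair the first sum is the range over Ctrl libraries and the second that over Upf3b-KO libraries.

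In the shallow library Upf3b-KO cerebellum replicate 1, the alpha, beta and gamma clusters had 10, 8 and 35 counts.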
